A study of Mus musculus with 2 samples.

Results

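The genes described here encode enzymes and receptors that handle ATP and adenosine, with CD39 (Entpd1) at their head. They were fixed by name as 10 mouse genes: Entpd1, Entpd5, Entpd6, Entpd7, Nt5e, Enpp1, Ada, Adk, Adora2a and Adora2b. A gene was counted as measured where the platform annotation assigned a probe set to it and to no other gene, which held for 7 of the 10 and for 19935 genes in all. Enpp1, Adora2a and Adora2b were not analysed here. Each of the 7 measured genes had 1 such probe set.

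The material came from dendritic cells (DCs), the antigen-presenting white blood cells, which were isolated from spleen by flow cytometry. The donors were wild-type C57BL/6 mice at 8 weeks of age. The control cells received vehicle (also labelled medium), the treated cells IL-27, a cytokine of the IL-12 family that signals through STAT factors, and the label gives the duration of both cultures as "ON". Each group was 1 sample on 1 array, so every value below is a single measurement, no spread between replicates is known, and no test, error or p-value could be computed. How many mice or cultures went into a sample is not given in the sources used here.

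ATP that leaves a cell acts as a danger signal on P2 receptors. CD39 at the cell surface removes phosphates from ATP and ADP to give AMP, CD73 (Nt5e) turns AMP into adenosine, and adenosine dampens immune cells through its own receptors. Adenosine is then cleared by deamination to inosine (adenosine deaminase, Ada) or by phosphorylation back to AMP (adenosine kinase, Adk). DCs, macrophages, B cells and regulatory T cells are known to carry CD39.

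The deposited values are intensities on a linear scale, and a difference is log2 of the IL-27 value minus log2 of the vehicle value. A gene was called lower or higher by a rule of size. The absolute difference had to be at least 1 (2-fold), and the higher of the gene's intensities had to reach 96.2, the median over both arrays and called the level minimum here. Genes of olfactory receptors, not expected in DCs, served as a measure of dim signal. Their 95th percentile on an array is called its olfactory limit, 77.3 for vehicle and 129 for IL-27. Each gene was also set beside the 1000 genes nearest to it in mean log2 intensity, because the difference between the arrays depended on level. With all genes divided by level into 10 bins, the median difference ran from 0.23 in bin 3 to -0.54 in bin 8. Entpd6 and Entpd7 fall in bin 8. Values were therefore also rescaled in several ways. Quantile normalization gives both arrays 1 distribution, median centring gives them 1 median, and removing the level trend subtracts a smooth curve of difference on level.

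Of the 7 measured genes, Entpd6 and Ada were lower on the IL-27 array by the size rule and none was higher, against 7.36% of all 19935 genes lower and 0.848% higher. Nt5e did not reach the level minimum. Among the 11140 genes that reached it, 13.2% were lower. The other 4, among them Entpd1 at 1.98-fold, lay short of the rule. The median difference of the 7 genes was -0.79, beside 0.04 for all genes and -0.34 for all genes over the level minimum (-0.14 after quantile normalization and -0.08 with the level trend removed). The -0.79 is the value of Adk, whose IL-27 signal was under the olfactory limit, as were those of Entpd5, Ada and Nt5e. Entpd1, Entpd5, Entpd6, Ada and Adk differed by between -0.55 and -1.38. Entpd7 and Nt5e had -0.15 and 0.39. In cell populations such as these, fewer cells of a type and less RNA per cell cannot be told apart.

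**Figure D1:**
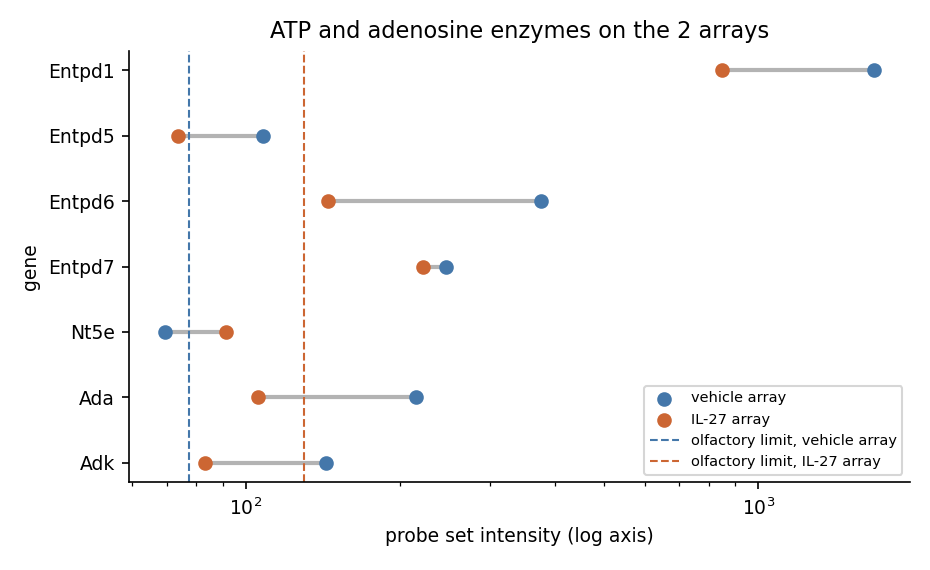
Intensity (log axis) of the 7 measured genes on the vehicle array (blue) and the IL-27 array (orange), 1 array each, with the olfactory limit of each array as a dashed line (77.3 and 129). Entpd1, Entpd6 and Entpd7 lie above both limits, Entpd5, Ada and Adk fall below the limit on the IL-27 array, and Nt5e is below it on both.

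CD39 was read well above the olfactory limits on both arrays and was lower on the IL-27 array. Entpd1 (probe set 10463070) gave an intensity of 1684 under vehicle and 849 under IL-27. Its difference was -0.99, just outside the size rule. The study behind these arrays is known for reporting CD39 as induced by IL-27 in DCs, and the deposited RNA values run in the other direction. That report is not among the sources used here. Whether it rests on RNA or protein, and on which time and samples, could therefore not be compared with these values. The arrays are named here by their labels, and whether those labels are right was not tested. Of the 1000 genes nearest in level, 12.7% had a difference at or below that of Entpd1, and their median was -0.32. Beyond that median the difference of Entpd1 was -0.66, smaller in size than the deposited one. Macrophage and monocyte markers, genes of another cell type that carries CD39, were lower for 16 of 23 measured genes, with values given further on, and their part in the Entpd1 difference was not tested.

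RefSeq places the starts of Entpd1 transcripts at separate promoters on chromosome 19 (GRCm38.p6, plus strand). The 250 bases before each start are shown because Entpd1 heads the set. Capitals mark the 5-base cAMP response element half-site TGACG and the CCAAT box, on either strand. No STAT site of the form TTCNNNGAA was found in these windows, which says nothing about STAT binding elsewhere.
Entpd1, chr19:40612116-40612365: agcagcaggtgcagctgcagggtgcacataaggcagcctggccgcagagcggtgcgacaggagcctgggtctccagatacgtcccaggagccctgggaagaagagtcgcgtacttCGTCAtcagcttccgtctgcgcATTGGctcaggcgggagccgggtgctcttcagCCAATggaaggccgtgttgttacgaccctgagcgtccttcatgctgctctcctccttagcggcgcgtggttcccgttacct
Entpd1, chr19:40659520-40659769: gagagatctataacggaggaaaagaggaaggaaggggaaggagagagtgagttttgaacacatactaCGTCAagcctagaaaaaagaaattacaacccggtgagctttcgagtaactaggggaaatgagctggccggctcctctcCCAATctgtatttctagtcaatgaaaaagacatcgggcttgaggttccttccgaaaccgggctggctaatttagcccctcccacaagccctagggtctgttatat

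The upstream window is GC-rich, with 62.4% G and C and 18 CpG dinucleotides, and the downstream window has 47.2% and 8. Over all 32851 windows of the same length the medians were 52.4% and 6. Counted from the transcript start, the half-site begins at -135 in the upstream window and at -183 in the downstream one. The array values do not tell which start was used.

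The other ectonucleoside triphosphate diphosphohydrolases among the members, Entpd5, Entpd6 and Entpd7, act inside the cell or after secretion. As deposited all 3 of these were below 0 in difference, as were 7895 of the 11140 genes over the level minimum. Entpd6 alone of the 3 passed the size rule. Entpd6 (probe set 10476952), a nucleoside diphosphatase of the Golgi and secreted fluid, had 376 under vehicle and 145 under IL-27. The fold was 2.60, a difference of -1.38, and 6.1% of its level-matched genes were as low or lower. Both values were above the olfactory limits. Entpd7 (probe set 10463282), an enzyme of intracellular vesicles, had 245 and 221, a difference of -0.15. Entpd6 and Entpd7 were set against nearly the same level-matched genes, whose median was -0.55 for both, so Entpd7 stood above that median and Entpd6 below it. Their differences were 1.23 apart as deposited, 1.28 after quantile normalization and 1.23 with the level trend removed. Entpd7 itself changed sign with the scaling, to 0.16 and 0.25 in the latter settings.

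Entpd5 (probe set 10401454), the UDP-hydrolysing enzyme of the endoplasmic reticulum that supports glycoprotein folding, was dim. It had 108 under vehicle and 73.6 under IL-27, a difference of -0.55. The vehicle value was above its array's limit, but both values were below the limit of the IL-27 array, so no fold is given. The median of its level-matched genes was 0.17.

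Adenosine formation by CD73 could not be followed. Nt5e (probe set 10587639) had 69.4 under vehicle and 91.3 under IL-27, both at or below the olfactory limits of their arrays. Its difference of 0.39 lies at the level of dim genes in general, whose median near Nt5e was 0.21. On these arrays the CD73 transcript was therefore not distinguishable from genes not expected in DCs.

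Both routes that clear adenosine were lower as deposited, Ada by the size rule and Adk short of it. Ada (probe set 10489391) had 214 under vehicle and 106 under IL-27, a difference of -1.02 and just inside the rule. The IL-27 value was below the olfactory limit, so the fold is at least 1.66, and against that limit Ada was no longer 2-fold lower. Adk (probe set 10413086) had 143 and 83.0, a difference of -0.79 and at least 1.11-fold lower. Of their level-matched genes, 9.8% for Ada and 9.7% for Adk were as low or lower. These shares use the deposited IL-27 values, which for both genes are too dim to size a difference.

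Ada was the only measured gene with a STAT-type match in the 250 bases before its start (chromosome 2, minus strand, GRCm38.p6). The window is shown for that match, and that of Entpd6, the gene with the largest difference, is shown beside it. Capitals mark the STAT-type motif TTCNNNGAA, the half-site and the CCAAT box on either strand.
Ada, chr2:163750240-163750489: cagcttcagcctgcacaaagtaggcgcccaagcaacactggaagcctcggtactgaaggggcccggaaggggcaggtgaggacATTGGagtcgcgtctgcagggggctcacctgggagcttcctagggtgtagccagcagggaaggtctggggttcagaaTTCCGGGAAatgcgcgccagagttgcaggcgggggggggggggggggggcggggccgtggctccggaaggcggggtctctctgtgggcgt
Entpd6, chr2:150748830-150749079: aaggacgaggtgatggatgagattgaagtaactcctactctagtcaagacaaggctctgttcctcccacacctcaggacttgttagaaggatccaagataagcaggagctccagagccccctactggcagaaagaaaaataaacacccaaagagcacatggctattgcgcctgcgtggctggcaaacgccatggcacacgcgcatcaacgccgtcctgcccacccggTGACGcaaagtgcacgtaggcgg

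The STAT-type match in the Ada window reads TTCCGGGAA and begins at -90 from the transcript start. Such a match was present in 7.02% of all windows. The half-site TGACG was found in 6 of the 10 windows of measured genes, those of Entpd1, Entpd5, Entpd6 and 1 of Adk, against 17.8% of all windows. The windows of Entpd6 overlap almost entirely and count as 1 sequence. The CCAAT box was found for 4 of the 7 genes (Entpd1, Entpd7, Ada and Adk) and in 33.8% of all windows. The Sp1-type box GGGCGG was also found for 4 genes (Entpd7, Nt5e, Ada and Adk) and in 32.7% of all windows. The AHR core GCGTG was found for 5 genes (28.2% of all windows), the HIF core ACGTG for Entpd5 and Entpd6 (16.6%) and TATAAA for 0 (12.4%). Matches of the half-site, the AHR core and the HIF core can share bases, as they do in the Entpd5 window. These are matches of letters, searched on both strands, and not bound sites. The half-site, the AHR and HIF cores and the Sp1-type box each contain a CpG. The windows of the measured genes held 8 to 24 CpG dinucleotides, beside a median of 6 over all windows. The shares of all windows were not matched for CpG. They are also counted per window, whereas some genes have more than 1 window.

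Entpd1, Entpd6 and Entpd7 were above the olfactory limits on both arrays. Their differences beyond the level-matched medians were -0.66, -0.83 and 0.40. At or below each of them lay 12.7%, 6.1% and 78.8% of the level-matched genes. For Entpd5, Ada, Adk and Nt5e, whose IL-27 values were under the limit, the size of such a difference cannot be read. The values of all 7 genes come from the same pair of arrays and are not independent of each other.

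**Figure D2:**
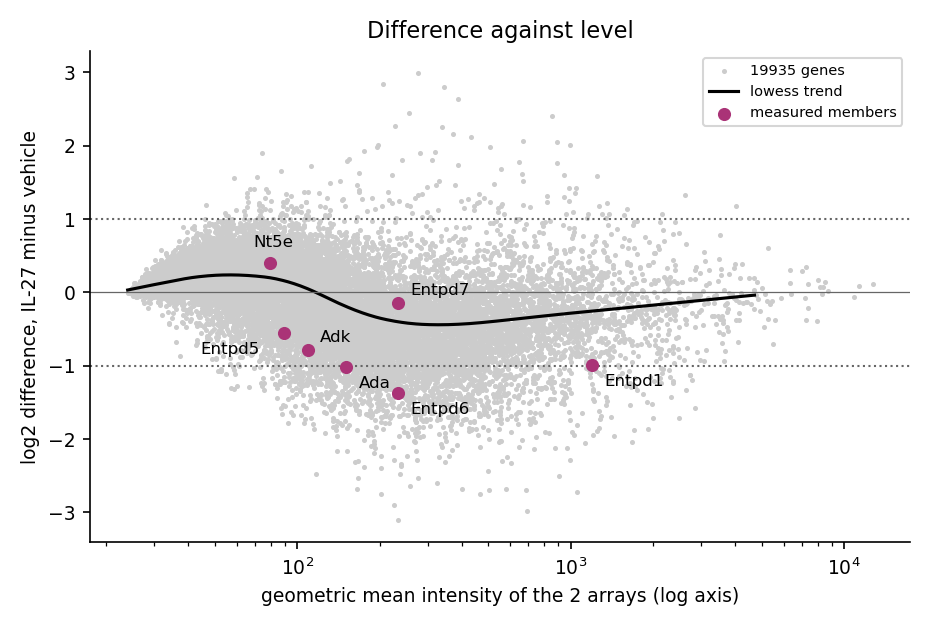
Log2 difference, IL-27 minus vehicle, against the geometric mean intensity of the 2 arrays (log axis) for 19935 genes (grey), with the lowess trend (line), the 7 measured genes (purple) and the 2-fold size rule (dotted). Entpd1, Entpd5, Entpd6, Ada and Adk lie below the trend, and Entpd7 and Nt5e above it.

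How many of the genes passed the rule depended on the scaling, whereas the sign of 6 of the 7 differences held in the rescalings. Both Entpd5 values were under the limit of the IL-27 array, and Nt5e was under the limit of each array. The signs of these genes therefore cannot be read, although they did not turn. Entpd1, Entpd5, Entpd6, Ada and Adk stayed below 0 in the 5 alternatives that rescale the values or take another probe set rule, with values from -1.48 to -0.47, and Nt5e stayed above 0. Some of these alternatives could not have turned a difference below 0. An offset keeps the sign, each gene had 1 probe set to average, and median centring lowers all differences by the same amount. Only quantile normalization and removal of the level trend could have done so. With the level trend removed, none of the 7 genes was lower by the size rule, beside 3.73% of all genes, and Entpd6 was nearest to it at -0.98. Entpd1 had -0.73 in that setting and -0.83 after quantile normalization. Median centring brought Entpd1 to -1.09, past the rule. With a 1.5-fold rule on the deposited values, 4 of the 7 (Entpd1, Entpd6, Ada and Adk) were lower, beside 18.8% of all genes. The IL-27 values of Ada and Adk were under the olfactory limit, and against that limit Adk was only at least 1.11-fold lower.

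**Figure D3:**
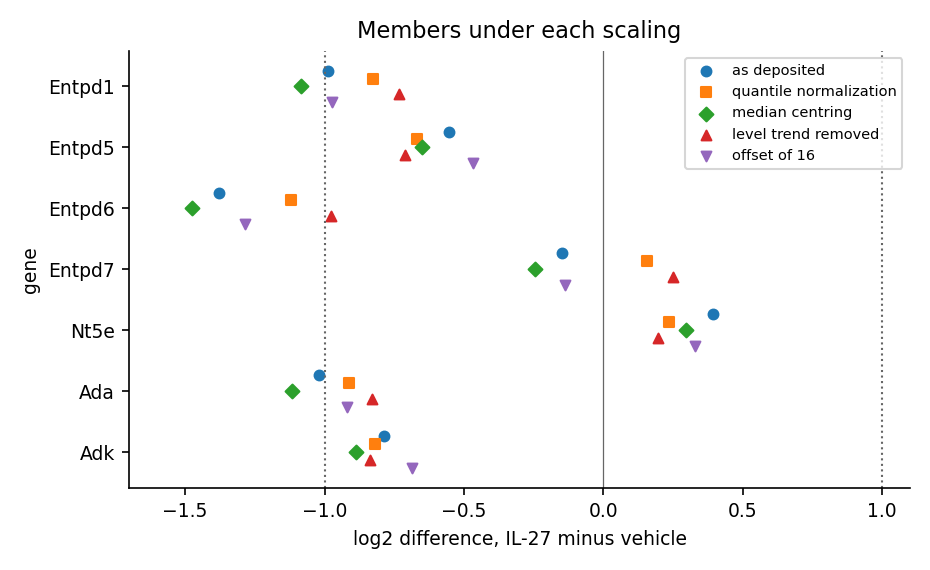
Log2 difference, IL-27 minus vehicle, of the 7 measured genes as deposited and under 4 other scalings, with the 2-fold size rule dotted. Entpd7 is the gene whose sign turns, and Entpd6 crosses the 2-fold line when the level trend is removed (-0.98).

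The wider pathway was read from lists of genes around the members, 76 of which were measured apart from the P2 receptors. By the size rule 13 of the 76 were lower and 1 higher, and 57 reached the level minimum. Their median difference was -0.19, closer to that of all genes than the members' -0.79. The latter is the value of Adk, whose IL-27 signal was under the olfactory limit. Of the 57, 22.8% were lower, beside 13.2% of all genes over the minimum. The count of lower genes was 7 after quantile normalization and 6 with the level trend removed.

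Among 11 further ectonucleotidases, 2 passed the rule as lower and 0 as higher. Their median of 0.06 turned to -0.04 with median centring, -0.11 after quantile normalization and -0.14 with the level trend removed. Enpp4, a membrane hydrolase of dinucleotides, had 466 under vehicle and 169 under IL-27, a difference of -1.47. Entpd4, a Golgi and lysosomal relative of CD39, had 712 and 312, a difference of -1.19. Entpd4 fell short of the rule after quantile normalization (-0.88) and with the level trend removed (-0.78), where Enpp4 was the 1 gene of the list still lower. Cant1, a Golgi nucleotidase, differed by -0.55. Enpp5 had 132 and 84.6, the latter under the olfactory limit. Entpd2, Entpd8 and Enpp3 did not exceed the olfactory limit of either array, nor did Acpp, a phosphatase that can make adenosine from AMP. Alpl, alkaline phosphatase, with the same activity, had 109 and 86.2, both under the olfactory limit of the IL-27 array.

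Enzymes that act on AMP, adenosine and inosine inside the cell had a median of -0.60 over 22 measured genes (-0.24 with the level trend removed), the lowest of the 7 pathway lists as deposited, with 4 lower and 0 higher. Ampd3, which deaminates AMP to IMP, had 504 under vehicle and 129 under IL-27, the latter no higher than the olfactory limit, and was at least 3.89-fold lower. Pnp, which splits the inosine that Ada makes, had 326 and 148, a difference of -1.14. Hprt, which salvages the resulting hypoxanthine, had 724 and 287, a difference of -1.33. Ak3, a mitochondrial adenylate kinase family member, differed by -1.46. With the level trend removed, Ampd3 (-1.54) and Ak3 (-1.04) kept a 2-fold difference, and Pnp (-0.76) and Hprt (-0.92) did not. Ada, Pnp and Hprt, which act in turn from adenosine on, were each lower as deposited and short of 2-fold with the trend removed. Pnp and Hprt are named for their large differences, and the IL-27 value of Ada was under the olfactory limit. These genes therefore do not describe the list, in which 15 of the 22 genes were below 0 and 7 above. Of all 19935 genes 9285 were below 0, and of the 11140 over the level minimum 7895 were.

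Among transporters of nucleosides and the remaining genes of their list, 2 of 8 were lower. Slc29a1, the equilibrative transporter ENT1 that carries adenosine across the plasma membrane, had 503 under vehicle and 204 under IL-27, a difference of -1.30 (-0.86 with the level trend removed). The lysosomal transporter Slc29a3 differed by -0.67. Dpp4, the surface peptidase CD26, differed by -1.09 (-0.84 with the level trend removed) and is also on the list of DC markers. With the level trend removed or after quantile normalization, 0 of the 8 were lower. Slc28a1, a sodium-driven transporter, differed by 0.41, and its IL-27 value of 115 was below the olfactory limit.

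Of 7 genes on the NAD route and in ATP release, 1 was lower. Bst1, the surface NAD-splitting enzyme CD157, had 170 and 81.7 and was at least 1.31-fold lower. The ATP release channel Panx1 differed by -0.90, its relative Panx2 by 0.46 and the volume-regulated channel subunit Lrrc8a by -0.25 (0.18 with the level trend removed). Of 15 P2 receptors, which sense the ATP and ADP that CD39 removes, 4 were lower and 0 higher, and 8 reached the level minimum. Their median was 0.22 (0.01 with the level trend removed), with 6 genes below 0 and 9 above as deposited. P2ry13, P2rx7 and P2ry6 differed by -2.50, -1.51 and -1.11 (-0.68 for P2ry6 with the level trend removed). P2ry12 had 277 under vehicle and 49.6 under IL-27, the latter under the olfactory limit, and was at least 2.14-fold lower.

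Downstream of adenosine receptors, cAMP signalling genes went both ways. Of 20 measured, 3 were lower and 1 higher. Their median was -0.27 as deposited and 0.05 with the level trend removed. The protein kinase A subunit Prkacb differed by -1.40 and the adenylyl cyclase Adcy7 by -1.19. Prkar2b, another subunit of that kinase, had 207 under vehicle and 78.6 under IL-27, the latter below the olfactory limit, and was at least 1.60-fold lower. Pde3b, which breaks down cAMP, was the higher gene, at 145 under vehicle and 339 under IL-27, a difference of 1.22. Prkacb and Pde3b kept a 2-fold difference with the level trend removed, and Adcy7 (-0.76) did not.

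Transcription factors that have been tied to Entpd1 or Nt5e had a median of 0.10 over 9 genes, with Sp1 lower (437 and 203, a difference of -1.10) and 0 higher. Sp1 fell short of the rule after quantile normalization (-0.78) and with the level trend removed (-0.66), where the list had 0 lower and 1 higher. Stat3, an IL-27 signal transducer, had 1192 and 1596, a difference of 0.42. Ahr and Hif1a differed by 0.15 and -0.03, the latter 0.23 with the level trend removed. Smad3 differed by 0.89 as deposited and 1.33 with the trend removed, past the rule there. Arnt, the partner of AHR and HIF, differed by -0.41 (-0.02 with the trend removed).

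**Figure D4:**
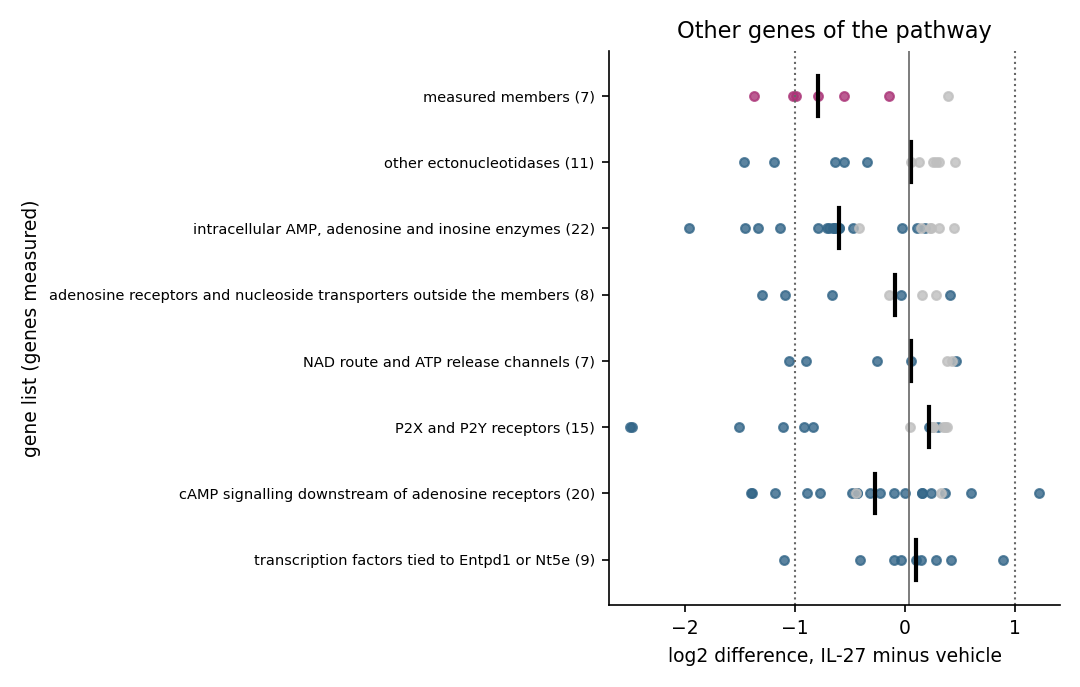
Log2 difference, IL-27 minus vehicle, for the measured members (purple) and 7 pathway lists, each point 1 gene (grey where under the level minimum), with list medians as black bars, the median of all genes (0.04) as a solid line and the 2-fold rule dotted. The intracellular enzymes and the members have the lowest medians, -0.60 and -0.79, the latter the value of Adk, under the olfactory limit on the IL-27 array.

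Markers of some cell types were also lower on the IL-27 array, and their part in the results was not tested. The defining DC genes were above the olfactory limits on both arrays. Itgax (CD11c) had 3371 under vehicle and 1829 under IL-27, Flt3 1796 and 851, and Zbtb46 344 and 340. Their differences were -0.88, -1.08 and -0.02, beside -0.99 for Entpd1. The median of the 11 DC markers was -0.88, and 5 of them were lower, beside 13.2% of all genes over the level minimum. After quantile normalization and with the level trend removed 3 of the 11 were lower. Flt3 fell short of the rule in both settings (-0.91 and -0.83). The summed intensity of the DC list was 41575 under vehicle and 36107 under IL-27, a ratio of 1.15. Most of it came from the genes of MHC class II antigen presentation Cd74, H2-Aa, H2-Ab1 and H2-Eb1, which summed to 30942 and 31429. The other 7 DC markers summed to 10633 and 4677, a ratio of 2.27, in a split chosen after seeing the data.

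Macrophage and monocyte markers were present on both arrays. Their median was -1.34, 16 of 23 measured were lower and 0 higher, and their summed intensity was 48920 under vehicle and 22440 under IL-27, a ratio of 2.18 beside 1.98 for Entpd1. Csf1r had 3287 and 1395, Mertk 2023 and 524, and Cd163 465 and 88.1, the last below the olfactory limit on the IL-27 array. Ccr2 was under the olfactory limit of both arrays. Of the 23 macrophage and monocyte markers, 15 were lower after quantile normalization and 14 with the level trend removed. Type 2 DC markers, with 6 of 10 lower, had a median of -1.45, and type 1 DC markers, with 4 of 9 lower, -0.87. In each of those settings 6 of the type 2 and 3 of the type 1 DC markers were lower. Plasmacytoid DC markers had 1 of 6 lower and a median of -0.76.

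Markers of other cells that the sort could hold were read in the same way. T cell markers had a median of 0.10 (-0.05 after quantile normalization and -0.04 without the level trend), 0 of the 10 were lower, and Cd3d, Cd3g, Cd2 and Cd28 were under the limits of both arrays. B cell markers had a median of -0.49 with 2 of 9 lower and 1 higher (Ighm, 1.26, which was 0.69 and short of the rule when its 3 probe sets were averaged), and their summed intensity was 2428 and 1681. Endothelial cell and platelet markers had a median of 0.07 (-0.05 after quantile normalization, -0.03 when centred and -0.06 without the level trend) with 1 of 12 lower (Pecam1, 545 and 153), and Tek, Tie1, Emcn and Pf4 were under the limits of both arrays. NK cell, neutrophil and mast cell, and erythroid markers had medians of 0.16, 0.26 and -0.18, with 2 lower in each list. The lower neutrophil and mast cell genes, Cxcr2 and Csf3r, and the lower erythroid genes, Epor and Tfrc, had IL-27 values under the olfactory limit. Csf3r, Tfrc and Epor were at least 2.12-fold, 1.83-fold and 1.31-fold lower. For Cxcr2 the vehicle value of 117 was also under the limit of the IL-27 array, so no fold is given. The neutrophil and mast cell median was 0.07 with the level trend removed. The NK cell median was -0.02 with the level trend removed, and there as after quantile normalization 0 of its 10 genes were lower. Summed intensities of these lists were at most 1920 on either array, except that of the B cell list.

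**Figure D5:**
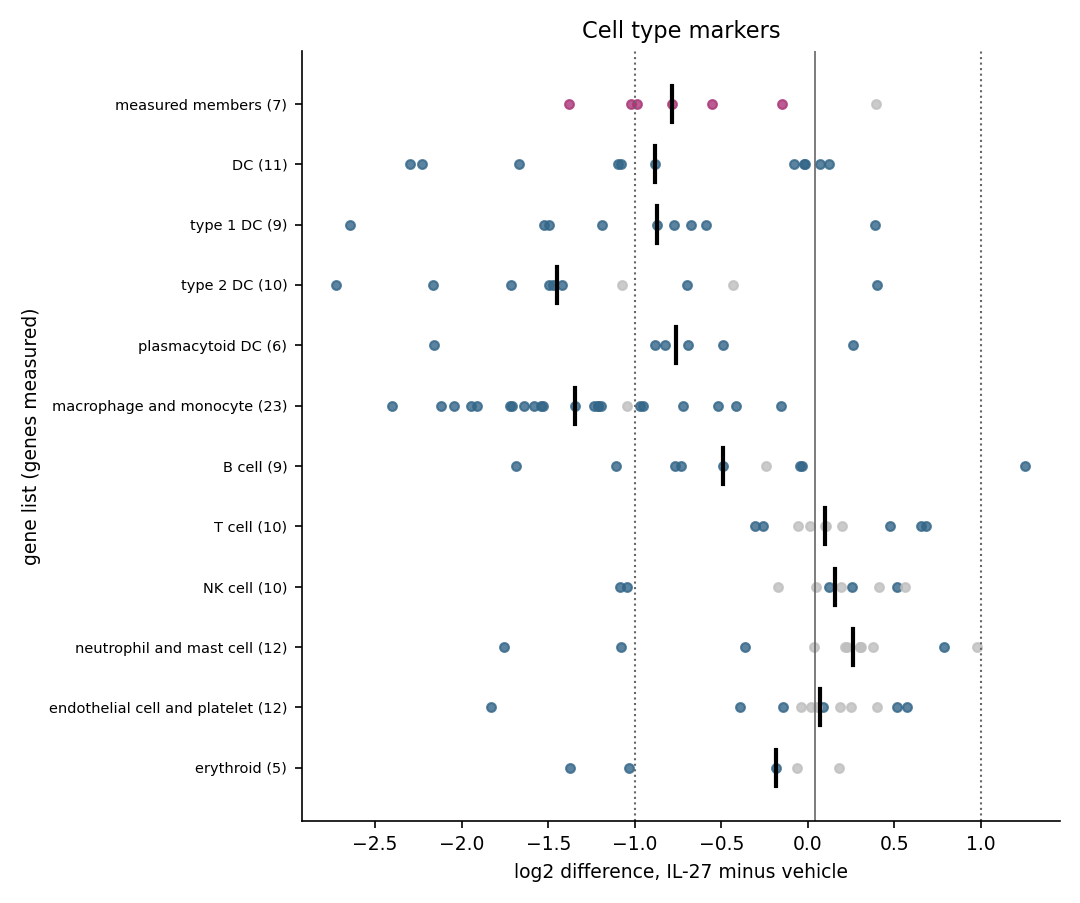
Log2 difference, IL-27 minus vehicle, for the measured members (purple) and 11 lists of cell type markers, each point 1 gene (grey where under the level minimum), with list medians as black bars, the median of all genes (0.04) as a solid line and the 2-fold rule dotted. Type 2 DC and macrophage and monocyte markers have medians of -1.45 and -1.34, below the members' -0.79. The members' median is the value of Adk, which was under the olfactory limit on the IL-27 array.

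The genes whose pair of values was most like that of Entpd1 were found by Euclidean distance on the log2 values of the 2 arrays, over all genes. The nearest 5 were Ttyh3, Ivns1abp, Slc48a1, Slc9a9 and Sla, at distances from 0.06 to 0.08. Ttyh3 had 1631 under vehicle and 872 under IL-27, and Slc9a9 had 1661 and 804. With 2 arrays such a likeness carries little information, since it only says that these genes were measured at about the same values.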

How the data were processed

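Dendritic cells of 1 vehicle sample and 1 IL-27 sample were each read on 1 array, labelled with Affymetrix's WT Terminal Labeling Kit per the labels' protocols. The deposited values are probe set intensities on a linear scale (28815 probe sets, all above 0). How the authors corrected background, combined probes and normalized is not given in the sources used here. The submitters' processing notes name the build mm8, so coordinates are printed for RefSeq promoters (GRCm38.p6) only. The array distributions differ (medians 92.4 and 98.9, 75th percentiles 267 and 215). With 1 array a group, precision is limited by that number.

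Probe sets with 1 gene in GEO's platform annotation (21780, against 1605 with several and 5430 unnamed here) were used, of which 21689 matched a RefSeq gene ID. Where a gene had several probe sets, that of the highest mean log2 stood for it. Log2 was taken with no pseudocount. Named genes were all members, up to 4 genes with the largest absolute difference per pathway list over the level minimum, the 5 genes nearest to Entpd1 and 6 defining markers. Further genes named (Entpd2, Entpd8, Enpp3, Acpp, Alpl, Ahr, Hif1a, Pecam1, Ighm, the MHC class II genes and dim markers) were picked with their values in view. The members and lists were chosen with earlier results of these data known. Alternatives were quantile normalization, median centring, lowess removal of the level trend (span 0.3), an offset of 16, averaging probe sets per gene, other level minimums, a 1.5-fold rule and values raised to the olfactory limit. Calling, level matching and trend removal were tested on simulated data. The simulated noise was smaller than the spread of these arrays, so that test checks the code and not the error rate of the calls. Python 3.11.15, pandas 2.3.3 and statsmodels 0.14.6 were used.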

Additional observations from a re-analysis of the deposited data

How the results depend on the processing

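Of the 7 measured genes, 2 were lower by the size rule as deposited. That count was 1 after quantile normalization (4.55% of all genes lower), 1 with an offset of 16 (6.11%), 1 with the level minimum at the 75th percentile (5.99%), 1 with dim values raised to the olfactory limit (5.67%), 0 with the level trend removed (3.73%) and 4 with a 1.5-fold rule (18.8%). It was 3 with median centring (9.38%), where Entpd1 passed the rule at -1.09. Entpd7 turned from -0.15 to 0.16 after quantile normalization and to 0.25 with the level trend removed. The median of the 7 genes was -0.69 with an offset of 16 and between -0.73 and -0.89 in the other settings. Ada fell short of the rule after quantile normalization (-0.91), with the level trend removed (-0.83) and with the offset (-0.92), and Entpd6 with the trend removed (-0.98). Among the 76 other pathway genes, 13 were lower and 1 higher as deposited. Lower genes numbered 7 after quantile normalization, 6 with the level trend removed and 26 with the 1.5-fold rule, and higher genes 2, 2 and 3. Over all genes, higher genes made up 10.3% of those past the rule as deposited, 20.6% after quantile normalization and 26.2% with the level trend removed, and lower genes numbered 1468, 907 and 744. The causes were not tested, beyond what the rules themselves fix. Without Cd74 and the MHC class II genes, the vehicle over IL-27 ratio of the summed DC markers went from 1.15 to 2.27. No paired analysis was possible because each group is 1 sample and the result comes from no test. No replicate could be left out. On the IL-27 array the signals of Entpd5, Nt5e, Ada and Adk were not above the olfactory limit, which limits what can be said of their fold.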
